A study of Mus musculus with 55 samples.

Results

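The cytosolic ribosomal protein genes encode the proteins of the machine that translates every messenger RNA, and were taken by symbol from the deposited count tables. A gene was a member when its symbol began with Rpl or Rps and went on with a number and at most a letter or paralog suffix, or was Rplp0, Rplp1, Rplp2 or Rpsa. Symbols marked as pseudogenes and the Rps6 kinases were left out. The rule found 84 members among 16442 genes, 83 in each table and 82 in both, of which 50 in each table belong to the large subunit and 33 to the small subunit. The rule itself used no measured value, but members were chosen with earlier results of these data known.

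A ribosome holds a single copy of nearly all of these proteins, so cells make them in matched amounts, and their messenger RNAs are among the most abundant of growing cells. Most begin with a run of pyrimidines, the 5′ terminal oligopyrimidine (TOP) motif, through which growth signals acting on the kinase mTOR control their translation. In the axial progenitors that lengthen the embryonic trunk and tail, Wnt and Fgf signals sustain growth, and the transcription factors Cdx and T (Brachyury) act there together, per the title of the study.

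RNA of 17 libraries was read by CEL-seq, which counts 3′ ends of transcripts. Epiblast stem cells (EpiSCs) are pluripotent lines made from pre-streak mouse embryos, grown first on embryonic fibroblasts and then without them on fibronectin with Fgf-basic and Activin A. Libraries were made from Null EpiSCs after 24h, Null EpiSCs at 0h, WT EpiSCs after 24h and WT EpiSCs at 0h, with 2 in each group. At 0h all cells were held in 2 µM of the Wnt inhibitor IWP2. For the 24h groups it was withdrawn, and 3 µM of Chiron, a GSK3 inhibitor that activates Wnt signalling, and 120 ng/ml of Fgf8 were added. No group went 24h without this change, so IWP2 withdrawal, Chiron, Fgf8 and time in culture cannot be told apart. The Null lines came from CdxKO embryos, and their culture text also names cells null for Wnt3. Untreated tailbuds microdissected at E8.0 gave 3 libraries each of Triple, Cdx1-4 and WT embryos, whose genotypes the labels do not spell out.

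EpiSC libraries held 1114055 to 2914870 counts and tailbud libraries 389601 to 854852. In CPM, counts scaled to a common library size, 3 counts of a library correspond to 1.03 to 2.69 in EpiSCs and 3.51 to 7.7 in tailbuds. As a check of the group names, Cdx4 had 0 counts in the 3 Triple libraries and 0 to 1 in Cdx1-4, against 16 to 33 in WT tailbuds. T had 36 to 64, 98 to 130 and 65 to 172 counts in the same order, so T transcripts were present in all 3 groups, and Cdx2 had 19 and 21 counts in Null EpiSCs at 24h, against 21 and 87 in WT. Where in these genes a deletion lies was not used here, so a remaining 3′ end does not check the label. The sum of 8 EpiSC markers was 247 to 288 CPM in Null cells at 24h, against 1360 to 1497 CPM in Null cells at 0h. In WT cells it was 134 to 137 CPM at 24h and 731 to 784 CPM at 0h. Nanog was at 0 in 3 of these groups, all but WT at 0h. All 9 streak and tailbud markers had counts at 24h in both lines. Nkx1-2, at means of 0.334 CPM in Null and 0.174 CPM in WT, lay below the level of 3 counts. Msgn1, at means of 1.91 and 2.03 CPM, lay near it. The sum of the 9 markers in tailbuds was 308 to 349 CPM in Triple, 579 to 747 CPM in Cdx1-4 and 629 to 772 CPM in WT. In a bulk sample, fewer cells of a type and less RNA per cell cannot be told apart.

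The sequence at the start of the genes is shown for members named below, because the TOP motif is the feature that these genes are known for. RefSeq (GRCm38.p6) gave a promoter for 63 of the 84 members. The windows run 5′ to 3′ on the gene's strand from 15 bases before the annotated start to 15 bases after it, and capitals mark the longest run of C followed by at least 5 bases that are C or T.
Rpl38 (chr11:114668565-114668594, plus strand): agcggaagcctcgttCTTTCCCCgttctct
Rps6 (chr4:86857353-86857382, minus strand): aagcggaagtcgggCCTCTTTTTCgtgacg
Rps10 (chr17:27635230-27635259, minus strand): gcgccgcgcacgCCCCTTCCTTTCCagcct
Rpl12 (chr2:32961697-32961726, plus strand): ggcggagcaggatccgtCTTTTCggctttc
Rpl13 (chr8:123102335-123102364, plus strand): ttCCCTTTCgcctgattttgattggcgttt
Rpl31 (chr1:39367836-39367865, plus strand): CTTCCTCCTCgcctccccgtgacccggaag
Rps21, first of its annotated starts (chr2:180257364-180257393, plus strand): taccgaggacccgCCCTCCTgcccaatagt
Rps3 (chr7:99483695-99483724, minus strand): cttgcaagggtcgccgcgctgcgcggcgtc
Rps3a1 (chr3:86142654-86142683, minus strand): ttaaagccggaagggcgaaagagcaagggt
In Rpl38 the run starts at the first annotated base, and in Rps6, Rps10 and Rps21 it spans the start. In Rpl13 and Rpl31 it lies before the start, in Rpl12 just after it, and Rps3 and Rps3a1 have none in this window.

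Such a run was present in 36 of the 63 members (57.1%), against 25.5% of all 27025 genes with a promoter. On the opposite strand of the same windows it was present in 9.52% of members and 28.6% of all genes. The letters CTTTC were found on the gene's strand in 17 of the 63 members, against 4.76% of all genes. An annotated start can differ by some bases from the start used in these cells, so no match says only that these letters are not in this window.

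Members took 16.0% to 20.5% of all counts of a library. Because CEL-seq reads the 3′ end of a molecule, counts were not divided by transcript length. The members differed widely among themselves. Among the members with high mean shares in EpiSCs were Rpsa (1.05% of counts), the laminin-receptor protein of the small subunit, Rpl15 (0.58%), the stalk protein Rplp1 (0.56%) and Rpl41 (0.544%), the shortest of the family. In tailbuds the mean shares were 0.995% for Rpsa, 0.686% for Rpl41, 0.575% for Rplp1 and 0.533% for Rpl15.

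Some members had almost no counts, although their proteins sit in every ribosome. Across all 8 EpiSC libraries Rpl26, Rpl30 and Rps27 totalled 82, 64 and 99 counts, and across the 9 tailbud libraries 25, 15 and 24. Rpl34 stood at 476 and 110 counts and the stalk protein Rplp2 at 1111 and 329. Many ribosomal protein genes have near-identical processed copies in the genome, and how the counting treated reads shared with such copies is not given in the sources used here. Levels of members are therefore uncertain where a copy could share reads, and these few are not read as weakly expressed.

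**Figure D1:**
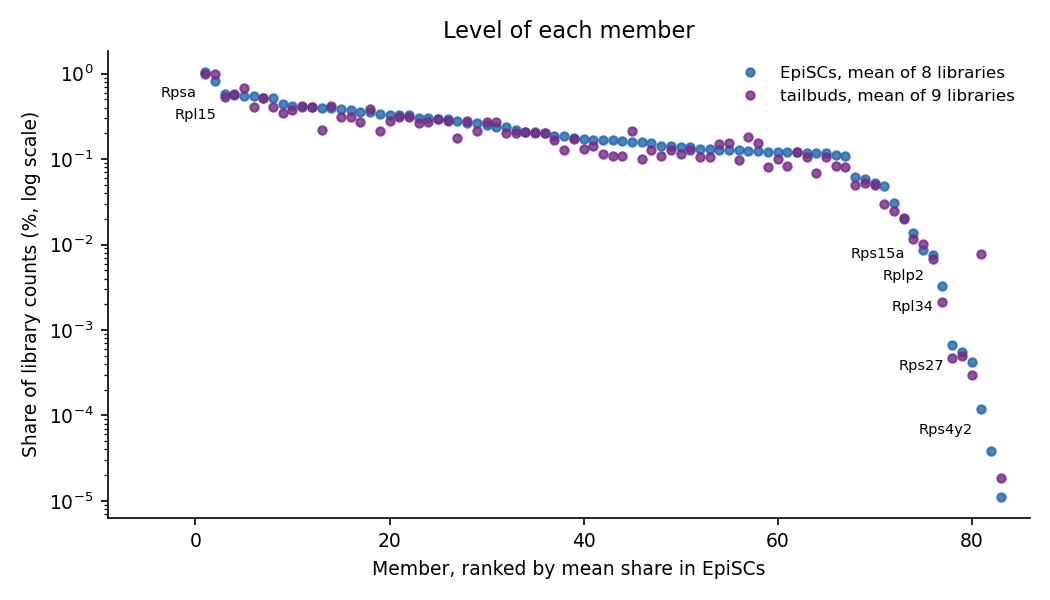
Mean share of library counts (percent, log scale) of each of the 83 members in the EpiSC table, ranked from the highest to the lowest, in EpiSCs (blue, 8 libraries) and in tailbuds (purple, 9 libraries, where the member is in that table). Most members lie near 0.1% to 1% in both tables, a tail of members falls far lower, and Rps4y2 stands apart with a tailbud point well above its EpiSC point.

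Most paralogs that stand in for a usual subunit had fewer counts than the genes they are named after. Rpl22l1, which can replace Rpl22 and binds RNA, had a mean share of 0.0309% in EpiSCs against 0.0528% for Rpl22, and 0.025% against 0.0499% in tailbuds. Rpl10l had 1 count in all EpiSC libraries and 1 in all tailbud libraries, Rpl3l had 4 counts in EpiSCs and Rpl39l 6 in tailbuds, all too few to test. Rps27l went the other way, with a mean share of 0.0489% in EpiSCs and 0.0297% in tailbuds, above Rps27 with its few counts. Rpl10l is known from testis and Rpl3l from heart and skeletal muscle.

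Rps4y2 differed between the sources. It held 0 to 4 counts in a library of EpiSCs and 20 to 68 in a library of tailbuds, although tailbud libraries were the shallower ones. RefSeq's gene table gives this symbol as another name of Rps4l on chromosome 6, annotated as a transcribed pseudogene. The tables were scaled separately, so no fold is given, and among tailbud groups Rps4y2 was not called.

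The first question was how these genes differed between 0h and 24h, after IWP2 withdrawal and a day with Chiron and Fgf8. The whole group took a larger share of the RNA in both lines. In Null EpiSCs members held 20.5% and 20.4% of counts at 24h, against 17.2% and 17.5% at 0h. In WT EpiSCs they held 20.1% and 19.8% at 24h, against 16.6% and 17.1% at 0h. Every 24h library lay above every 0h library, by 3.09 percentage points of the mean in Null cells and 3.10 points in WT cells. Both subunits took part. The large subunit averaged 11.7% in Null cells at 24h and 10.1% at 0h, and 11.7% in WT cells at 24h and 9.81% at 0h. The small subunit averaged 8.76% in Null cells at 24h and 7.24% at 0h, and 8.3% in WT cells at 24h and 7.05% at 0h. A share is relative to all other transcripts of a library, and spike-ins, with 2 counts in all, give no absolute scale.

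**Figure D2:**
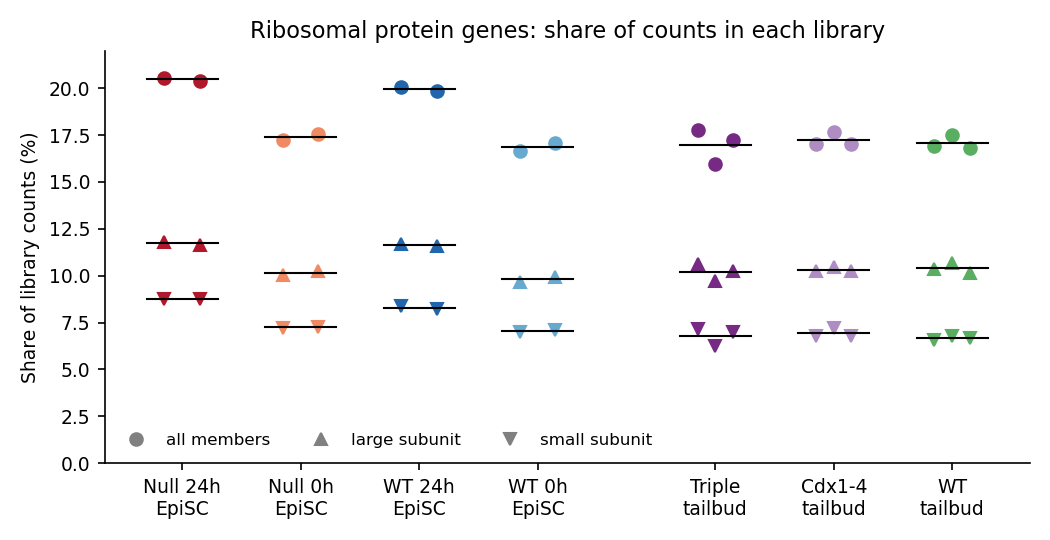
Share of library counts (percent) held by all members (circles), the large subunit (upward triangles) and the small subunit (downward triangles) in each of the 17 libraries, with the group mean as a line. EpiSC libraries at 24h lie near 20% and those at 0h near 17%, while the 3 tailbud groups overlap around 17%.

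Gene by gene, 44 of 80 tested members rose in Null cells and 50 of 80 rose in WT cells (edgeR, adjusted p below 0.05). None fell, at an unadjusted p below 0.05 none fell either, and DESeq2 called 39 and 41 higher with none lower. The background among all 9703 tested genes was 9.18% higher and 9.44% lower in Null, and 8.19% higher and 8.63% lower in WT. At an unadjusted p below 0.05, 14.9% of them were lower in Null and 14.3% in WT by edgeR. DESeq2 called 515 of them higher and 515 lower in Null, and 458 higher and 386 lower in WT. The median log2 difference of members was 0.30 in Null cells and 0.31 in WT cells, where the medians of all tested genes were 0.01 and -0.01. The log2 difference was above 0 in 77 of 80 members in Null cells and in 76 of 80 in WT cells. Of all 9703 tested genes it was above 0 in 4942 in Null and 4763 in WT. Abundant genes are easier to call, so the 60 other genes at or above the lower quartile of the members' mean level were counted too. Of these, 20% were called higher and 11.7% lower in Null, and 20% higher and 6.67% lower in WT, and their median log2 differences were 0.04 and 0.10. At the same level 34 of 60 members were called in Null and 43 of 60 in WT.

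The count of calls depended on the scaling and on single libraries, while the direction did not. In both lines most calls were lost under some alternative, while every called member kept its sign. Scaled to library totals alone, 29 members were higher and 1, Rpl11, lower in Null, and 29 higher in WT. In Null 27 were called without 0h replicate 1 and 25 without 24h replicate 1. In WT 17 were called without 0h replicate 1 and 33 without 24h replicate 1. The members' median log2 difference stayed between 0.23 and 0.33 in Null and between 0.24 and 0.35 in WT under every alternative tried. The labels do not say that replicates were separate cultures or animals, so p-values here measure the spread between these samples only. Summed EpiSC markers were lower and summed streak markers higher at 24h in both lines. The sum of 7 fibroblast markers, of the earlier feeder culture, was 86.2 to 108 CPM in Null cells at 24h, against 102 to 119 CPM at 0h, with Lum at 0 at 0h, and 115 to 149 CPM in WT cells at 24h, against 209 to 255 CPM at 0h. The sum of 7 endoderm markers was 102 to 132 CPM in Null cells at 24h, against 45.5 to 107 CPM at 0h, and 179 to 186 CPM in WT cells at 24h, against 107 to 126 CPM at 0h. The Null ranges overlapped for fibroblast and endoderm markers and the WT ranges did not. Single markers of a list did not all follow its sum. In WT cells the endoderm rise was mostly that of Apoe, from 75.6 to 160 CPM. Sox17 (22.2 to 11.1 CPM) and Foxa2 (14.2 to 3.51 CPM) were lower at 24h. The WT fibroblast fall was mostly that of Col3a1 (172 to 81.9 CPM), while Col1a2 (11.6 to 15 CPM) and Postn (2.78 to 5.16 CPM) were higher. The part of these markers in the result was not tested.

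Of the 80 tested members, 32 were called higher in both lines, 12 in Null alone, 18 in WT alone and 18 in neither, and none was called in opposite directions. The log2 difference was above 0 in both lines for 73. Such overlaps were not counted over all tested genes, of which 9.18% were called higher in Null and 8.19% in WT. Rps3 (chr7:99477896-99483709), a protein at the channel where messenger RNA enters the small subunit, had the largest called rise in Null cells. Its level was 1804 and 1676 CPM in Null cells at 24h, against 1107 and 1096 CPM at 0h. In WT cells it was 1380 and 1452 CPM at 24h, against 878 and 1021 CPM at 0h. No 24h library overlapped a 0h library in either line. The log2 differences were 0.66 ± 0.10 in Null (SE, edgeR adjusted p = 2.51e-06) and 0.58 ± 0.10 in WT (edgeR adjusted p = 2.5e-05).

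Rps20, a protein of the head of the small subunit, was among the 5 largest called rises of both lines. Null cells held 6386 and 6504 CPM at 24h, against 4254 and 4130 CPM at 0h. WT cells held 7381 and 5460 CPM at 24h, against 3997 and 4308 CPM at 0h. The WT replicates at 24h were far apart, but both stood above 0h. The log2 differences were 0.62 ± 0.10 in Null (SE, edgeR adjusted p = 1.91e-05) and 0.63 ± 0.10 in WT (edgeR adjusted p = 1.68e-05). Rps10 rose by a log2 difference of 0.58 in Null and 0.44 in WT.

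The ribosomal stalk recruits elongation factors. Its protein Rplp1 had the largest called rise of WT cells. Rplp1 stood at 7120 and 6899 CPM in WT cells at 24h, against 4052 and 4530 CPM at 0h. In Null cells Rplp1 was at 6038 and 6638 CPM at 24h, against 4873 and 5141 CPM at 0h. All 24h libraries lay above those of 0h, by a log2 difference of 0.34 in Null and 0.71 ± 0.09 in WT (SE, edgeR adjusted p = 1.1e-07). Rpl12, at the base of the stalk, rose by 0.45 in Null and 0.67 in WT. Rplp0, the protein that anchors the stalk, rose by 0.45 in WT, and its 0.23 in Null was not called. Rplp2 rose by 0.52 in Null, and its 0.40 in WT was not called. None of these 4 genes was called for a difference between the responses. The called rises of Rpl12 in both lines and of Rplp1 and Rplp0 in WT held under every alternative. Those of Rplp1 and Rplp2 in Null did not.

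Among other proteins of the large subunit, Rpl13 rose by a log2 difference of 0.65 in Null and 0.30 in WT, and Rpl31 by 0.59 in Null and 0.48 in WT. Of these calls, that of Rpl13 in WT was lost under some alternative. Rpl34 was called in WT alone (0.66 ± 0.22 SE, edgeR adjusted p = 0.0305), from 33.8 and 38.6 CPM at 24h against 22.5 and 23.9 CPM at 0h. That call rests on 42 to 111 counts in a WT library. It was lost under DESeq2, with library totals, and without WT 0h replicate 1, WT 0h replicate 2 or WT 24h replicate 1. Rpl26, Rpl30 and Rps27, with the widest scatter, were not called in either line.

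Several members have known roles beyond the general one. Rpl38, whose loss shortens the axial skeleton in Tail-short mice, stood at 2287 and 2053 CPM in Null cells at 24h, against 1472 and 1528 CPM at 0h, and at 1914 and 1909 CPM in WT cells at 24h, against 1457 and 1453 CPM at 0h. Both rises were called, with log2 differences of 0.53 in Null and 0.39 in WT. Rpl5 and Rpl11 bind 5S ribosomal RNA together and, when free, restrain Mdm2. Rpl5 rose in both lines, by 0.55 in Null and 0.26 in WT. Rpl11 was at 2371 and 2121 CPM in Null cells at 24h, against 2603 and 2508 CPM at 0h, and at 2813 and 2370 CPM in WT cells at 24h, against 1987 and 2129 CPM at 0h. Its Null libraries were lower at 24h and its WT libraries higher. The WT rise (0.33) was called, and lost without WT 0h replicate 1 or WT 24h replicate 1, and the Null difference of -0.19 was not called. Rps6, the substrate of S6 kinases, rose by 0.37 in WT, and its 0.23 in Null was not called. Rps19, mutated in human Diamond-Blackfan anaemia, rose by 0.28 in Null and 0.26 in WT, and Rpsa by 0.40 in Null and 0.33 in WT. Of the called rises in this paragraph, those of Rpl38 in both lines and of Rpl5 and Rpsa in Null held under every alternative. The others were lost under some alternative.

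**Figure D3:**
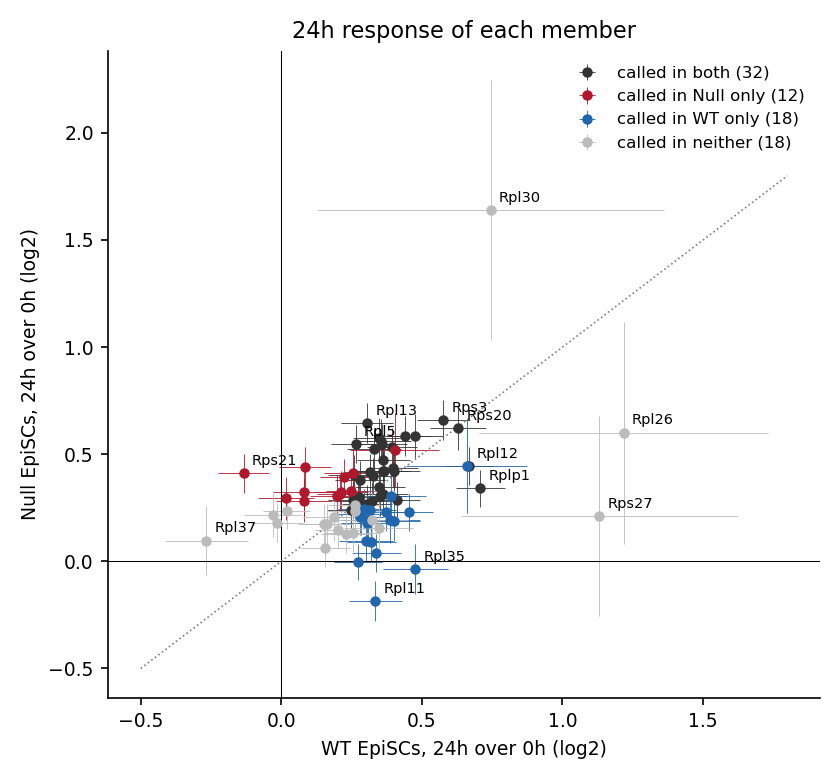
Log2 difference of 24h over 0h in Null EpiSCs (vertical) against that in WT EpiSCs (horizontal) for the 80 tested members, with standard errors as bars and colours for the calls. Most points lie in the upper right around 0.3 on both axes, Rps21 lies left of 0 and Rpl11 below 0, and the 3 members with few counts, Rpl26, Rpl30 and Rps27, carry the longest bars.

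Of the paralog pairs, Rps27l, a paralog of Rps27 known as a p53 target, rose in both lines, by 0.56 in Null and 0.36 in WT. Rpl22 and Rpl22l1 rose in Null by 0.41 and 0.33, and their 0.26 and 0.08 in WT were not called. Rpl7 and Rpl7l1 were not called at 24h in either line, nor was Rpl3. Among the 4 X-linked members, Rpl36a and Rps4x rose in both lines, by 0.40 and 0.28 in Null and 0.26 and 0.32 in WT. Rpl10 was called in WT (0.32) and not in Null (0.09), and Rpl39 in Null (0.29) and not in WT (0.02), and neither was called for a difference between the responses. Of the calls in this paragraph, those of Rps27l and Rpl36a in Null held under every alternative, and the others did not.

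Members of high and of low level had like medians. Of the 20 tested members with the highest mean share, 12 were called in Null and 15 in WT, with medians of 0.33 and 0.34. Of the 20 with the lowest, which counting error affects most, 10 were called in Null and 7 in WT, with medians of 0.33 and 0.34. Members with the pyrimidine run in the printed window had a median of 0.33 in Null and 0.32 in WT (35 tested), and those without it 0.27 and 0.32 (25 tested).

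The second question was how Null EpiSCs differed from WT EpiSCs at each time. Here few members were called. At 0h members held 17.2% and 17.5% of counts in Null cells, against 16.6% and 17.1% in WT, a difference of the means of 0.53 percentage points with no overlap. At 24h the difference was 0.52 points, again with no overlap. By subunit, the large one differed by 0.34 points at 0h and the small one by 0.19, both with no overlap. At 24h the small subunit differed by 0.46 points with no overlap, and the large one by 0.06 points with overlap. At 0h 8 of 80 members were higher in Null and 1 lower, beside a background of 3.32% higher and 3.35% lower. At 24h 12 were higher and 2 lower, beside 3.7% higher and 4.35% lower. The median log2 difference of members was 0.08 at 0h and 0.11 at 24h. It was above 0 in 59 of 80 members at 0h and in 61 at 24h. Of all 9703 tested genes it was above 0 in 4719 and 4886. At an unadjusted edgeR p below 0.05, 23.8% of members were higher in Null at 0h and 26.2% at 24h. Of all tested genes, 9.5% and 10.1% were. On the lower side were 5% and 6.25% of members, beside 10.7% and 11.2% of all tested genes. With library totals the split was 3 higher and 4 lower at 0h and 8 higher and 3 lower at 24h, and with upper-quartile scaling 4 higher and 2 lower at 0h. At 0h DESeq2 called 5 higher and 0 lower, beside 160 and 98 of all 9703 tested genes. It gave 4 lower at an unadjusted p below 0.05, beside 5.2% of all tested genes. Leaving out a library changed the count strongly. At 0h, 2 members were called without Null 0h replicate 2, without WT 0h replicate 1 or without WT 0h replicate 2, 3 without Null 0h replicate 1, 5 without Null 24h replicate 1 and 4 without Null 24h replicate 2. At 24h, 3 were called without Null 24h replicate 1, 4 without Null 24h replicate 2 and 7 without WT 24h replicate 1.

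Rps3a1 (chr3:86137940-86142668), a small subunit protein near the site where initiation factors bind, stood out at both times. It was at 4006 and 3962 CPM in Null cells at 0h, against 2572 and 2832 CPM in WT at 0h. At 24h it was at 4525 and 4673 CPM in Null, against 3154 and 3411 CPM in WT. All Null libraries lay above all WT libraries. The log2 differences were 0.56 ± 0.09 at 0h (SE, edgeR adjusted p = 3.95e-05) and 0.49 ± 0.09 at 24h (edgeR adjusted p = 0.000266), and both were called under every alternative. Rpl24, Rps12 and Rps14 were also higher in Null at both times, by 0.36, 0.29 and 0.32 at 0h and 0.32, 0.30 and 0.36 at 24h. At 0h the calls of all 3 were lost without WT 0h replicate 1, WT 0h replicate 2 or Null 0h replicate 2, and those of Rpl24 and Rps12 also without Null 0h replicate 1. The 0h call of Rps12 was lost without either Null library of 24h too. At 24h the calls of all 3 were lost without Null 24h replicate 1 or Null 24h replicate 2, those of Rpl24 and Rps12 also without WT 24h replicate 1, and those of Rps12 and Rps14 without WT 24h replicate 2. With library totals Rpl24 was not called at 24h, Rps14 not at 0h and Rps12 at neither time, and with upper-quartile scaling Rps12 was not called at 0h. Rplp0 (0.42) and Rpl7l1 (0.41, edgeR adjusted p = 0.0499) were called at 0h and not at 24h, and Rps23 (0.49), Rps27l (0.48) and Rpl35a (0.38) at 24h and not at 0h. None of these 5 was called for a difference between the responses. The call of Rplp0 was lost without Null 0h replicate 2, and those of Rps23 and Rps27l without Null 24h replicate 1. The call of Rpl35a was lost without Null 24h replicate 1, Null 24h replicate 2 or WT 24h replicate 2, and that of Rpl7l1 was kept under 7 of 16 alternatives. At 24h the largest called difference was that of Rps21 (0.61).

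Rps15a was the member lower in Null at both times. It had 105 and 101 CPM in Null cells at 0h, against 136 and 147 CPM in WT, and 128 and 126 CPM in Null at 24h, against 191 and 178 CPM in WT. No Null library overlapped a WT library of its time. The log2 differences were -0.45 ± 0.14 at 0h (SE, edgeR adjusted p = 0.0405) and -0.54 ± 0.13 at 24h (edgeR adjusted p = 0.00504). The call at 0h was lost under DESeq2 and when any library other than the WT ones of 24h was left out. Rps9 was lower at 24h (-0.33, edgeR adjusted p = 0.0179). The 24h calls of both genes were lost without Null 24h replicate 1, Null 24h replicate 2 or WT 24h replicate 1.

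At 0h the EpiSC marker sum was 1360 to 1497 CPM in Null against 731 to 784 CPM in WT, the fibroblast sum 102 to 119 CPM against 209 to 255 CPM, and the streak sum 36.1 to 44.2 CPM against 102 to 105 CPM. At 24h the EpiSC sum was 247 to 288 CPM in Null against 134 to 137 CPM in WT, the streak sum 1360 to 1393 CPM against 875 to 1183 CPM, and the endoderm sum 102 to 132 CPM against 179 to 186 CPM. The fibroblast sum at 24h was 86.2 to 108 CPM against 115 to 149 CPM. Of the endoderm markers at 24h, Apoe (90.8 against 160 CPM), Sox17 (6.3 against 11.1 CPM) and Foxa2 were lower in Null. Ttr (9.73 against 5.45 CPM), Apoa1 (4.25 against 0.493 CPM), Amn and Afp were higher. Whether these marker differences take part in the member differences was not tested.

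The third question was whether the 24h response itself differed between the lines. A single member passed that test, beside 0.34% of all tested genes with a larger response in Null and 0.227% with a smaller one. Rps21, a small subunit protein, was at 1853 and 1781 CPM in Null cells at 24h, against 1385 and 1350 CPM at 0h. In WT cells it was at 1217 and 1169 CPM at 24h, against 1362 and 1258 CPM at 0h. Null libraries were higher at 24h and WT libraries lower. Rps21 rose in Null by a log2 difference of 0.41, the WT difference of -0.13 was not called, and the response of Null minus that of WT was 0.54 ± 0.13 (SE, edgeR adjusted p = 0.0351). The call held under the 7 other alternatives and was lost when any of the 8 libraries was left out, with adjusted p from 0.053 to 0.243 in edgeR. Smaller responses in Null were called for 0 members by edgeR and by DESeq2. At an unadjusted p below 0.05 there were 5 and 4, beside 4.8% and 2.07% of all tested genes. Rpl11 (-0.52) and Rpl35 (-0.51) had the largest such values beside Rpl26 and Rps27 with their few counts. This pair was chosen after values were seen, and both were called without the filter and without WT 24h replicate 2. For all members together the difference between the share responses was -0.008 points, and it was 0.21 without WT 0h replicate 1 and -0.23 without WT 0h replicate 2.

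**Figure D4:**
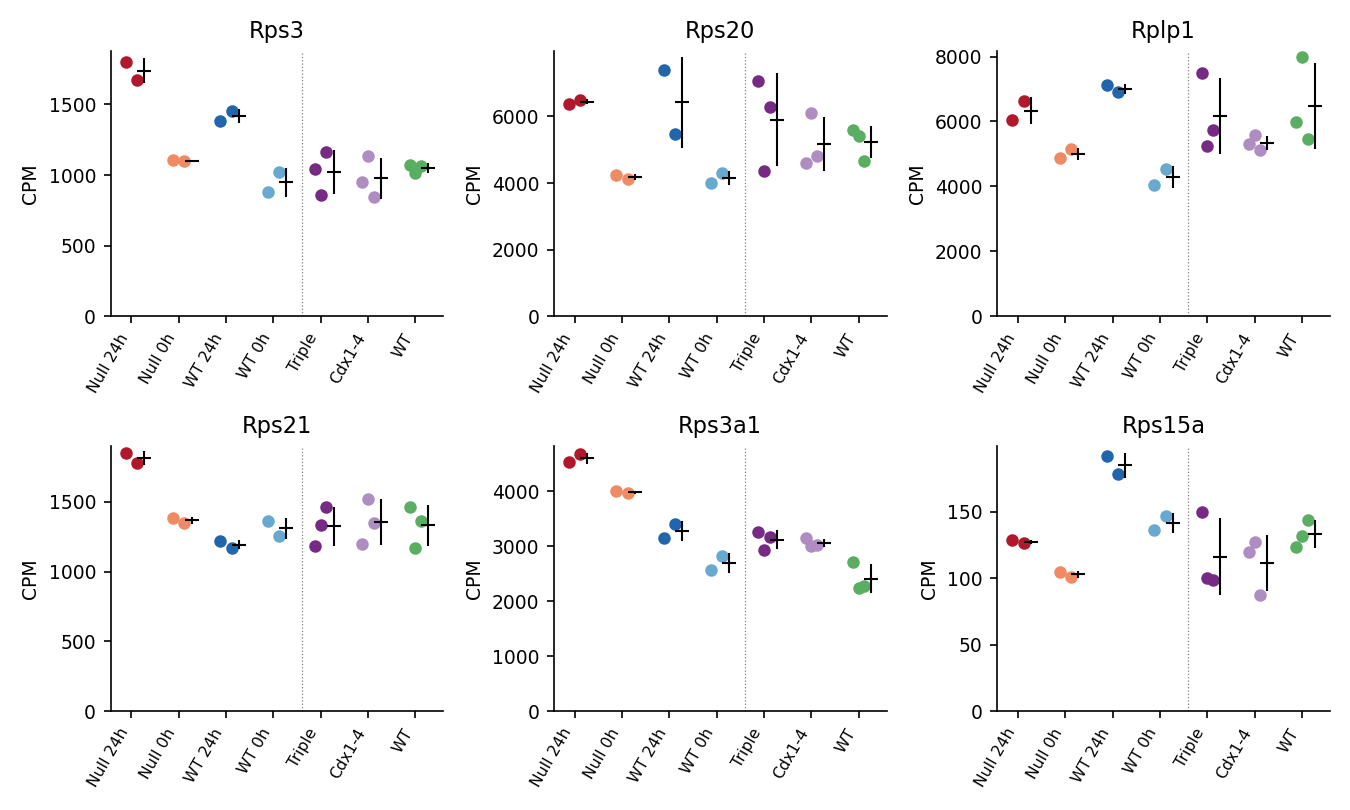
CPM of Rps3, Rps20, Rplp1, Rps21, Rps3a1 and Rps15a in every library (points) with group mean and SD beside them, EpiSCs left of the dotted line and tailbuds right of it, the tables scaled separately. Rps3, Rps20 and Rplp1 are higher at 24h in both lines, Rps21 is higher at 24h in Null and not in WT, Rps3a1 is higher in Null than in WT, and the tailbud groups overlap for each gene except Rps3a1, where Triple and Cdx1-4 lie above WT.

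In tailbuds the question was whether Triple or Cdx1-4 embryos differed from WT. The share of counts did not separate the groups. Triple libraries held 17.8%, 16.0% and 17.2%, Cdx1-4 libraries 17.0%, 17.7% and 17.0%, and WT libraries 16.9%, 17.5% and 16.8%. The means differed by -0.078 percentage points for Triple against WT and by 0.175 points for Cdx1-4 against WT, and these signs turned too when single libraries were left out (0.434 without Triple replicate blue-1, 0.128 without WT replicate blue-1, -0.0273 without Cdx1-4 replicate blue-1). The small subunit averaged 6.8% in Triple, 6.93% in Cdx1-4 and 6.67% in WT, and the large subunit 10.2%, 10.3% and 10.4%. All of these ranges overlapped.

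Of 78 tested members, 1 was higher and none lower in Triple than in WT, beside a background of 1.62% higher and 1.28% lower among 6003 tested genes. None was called in Cdx1-4 against WT, beside 0.0333% and 0.1%, or in Triple against Cdx1-4, beside 1.22% and 0.8%, and DESeq2 gave the same counts. At an unadjusted edgeR p below 0.05, 2 members were higher and 2 lower in Triple than in WT, 3 higher and 4 lower in Cdx1-4 than in WT, and 2 higher and 4 lower in Triple than in Cdx1-4. The shares of all tested genes were 6.58% and 5.45%, 3.88% and 3.75%, and 5.93% and 4.93% in the same order. The members' median log2 difference was -0.02 in Triple over WT, 0.02 in Cdx1-4 over WT and -0.03 in Triple over Cdx1-4, with no stable sign. The first turned with upper-quartile scaling (0.01) and without Triple replicate blue-1 (0.02), the next without Cdx1-4 replicate blue-1 (-0.0075), and the last without Triple replicate blue-1 (0.02). Over the 78 members the log2 difference of Triple against WT ran from -0.31 to 0.37, with a median standard error of 0.10. The libraries were shallower here than in EpiSCs, and a p that misses the threshold does not show that levels were equal.

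The called member was again Rps3a1. It was at 3266, 2938 and 3165 CPM in Triple, 3148, 3010 and 3028 CPM in Cdx1-4, and 2723, 2234 and 2281 CPM in WT. Every Triple and Cdx1-4 library lay above every WT library. The log2 difference was 0.37 ± 0.10 for Triple against WT (SE, edgeR adjusted p = 0.0204) and 0.34 ± 0.10 for Cdx1-4 against WT (edgeR adjusted p = 0.257, not called), 2 comparisons that share the WT libraries. The Triple call was lost when Triple replicate green-1, Triple replicate blue-2, WT replicate blue-1 or WT replicate blue-2 was left out, with a highest adjusted p of 0.164 in edgeR. Among the blue libraries alone, a colour in the names of the deposited columns, it was 0.44 and still called.

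The tailbud comparisons were between groups of untreated embryos, so they do not measure the rise seen in EpiSCs after the culture change. Rps20 and Rpl38, called for that rise in both EpiSC lines, were not called between tailbud groups. Rps20 was at 7068, 4349 and 6283 CPM in Triple, 4589, 6090 and 4808 CPM in Cdx1-4, and 5578, 5422 and 4671 CPM in WT. Rpl38 was at 1639, 1255 and 1559 CPM in Triple, 1125, 1728 and 1304 CPM in Cdx1-4, and 1214, 1451 and 1175 CPM in WT. The ranges of the 3 groups overlapped for both genes. Rps15a, lower in Null EpiSCs, had a log2 difference of -0.21 for Triple and -0.22 for Cdx1-4 against WT, neither called. Streak and tailbud markers were at 308 to 349 CPM in Triple against 629 to 772 CPM in WT, endoderm markers at 1689 to 1787 CPM against 930 to 1788 CPM, and decidua and trophoblast markers at 71.1 to 98 CPM against 28.1 to 36.9 CPM. Of the last list, Krt7 (40.4 against 17.3 CPM), Prl8a2 (26.3 against 0.407 CPM) and Prl3d1 were higher in Triple than in WT. Tfap2c (10.3 against 13.1 CPM) and Plac1 (0.814 against 0.879 CPM) were lower. In Cdx1-4 the sum of this list was 41.6 to 53.9 CPM, with Tfap2c (12.2 CPM) below WT and the others above it. Streak and tailbud markers summed to 579 to 747 CPM in Cdx1-4 and endoderm markers to 915 to 1322 CPM. Primitive blood markers were at 10.9 to 60.7 CPM in Triple, 2.71 to 333 CPM in Cdx1-4 and 13.2 to 33 CPM in WT. The part of all these markers in the member values was not tested.

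**Figure D5:**
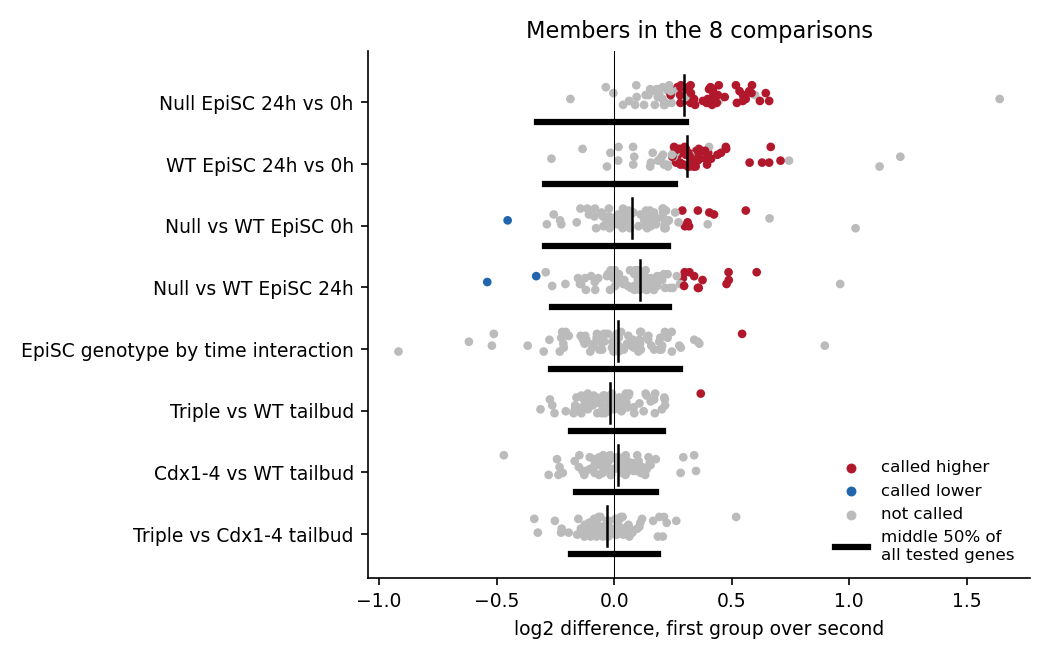
Log2 difference of each tested member (points, red called higher, blue called lower, grey not called) in the 8 comparisons, with the members' median as a thin vertical line and the middle 50% of all tested genes as a thick bar. Members sit to the right of 0 in both 24h responses, spread around 0 or slightly above it between Null and WT EpiSCs, and gather around 0 in the tailbud comparisons.

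Genes that work with the ribosomal proteins were described from lists of 93 ribosome assembly genes and of 21 other messenger RNAs with a TOP motif. Of 90 tested assembly genes, 4 rose and 4 fell in Null at 24h, and 5 rose and 1 fell in WT, with medians of 0.01 and 0.09, beside 9.18% higher and 9.44% lower of all tested genes in Null and 8.19% and 8.63% in WT. DESeq2 called 2 higher and 3 lower in Null, and 1 higher and 1 lower in WT, so most of the rises named next were not called by it. Taf1a, a subunit of the RNA polymerase I factor SL1, rose in both lines, by 0.92 in Null and 0.69 in WT. Sbds, which helps to release a factor from the new large subunit, rose by 0.82 in Null, and Taf1d and Noc2l rose by 0.78 and 1.25 in WT. Nol6, a processing factor, fell by 0.74 in Null. At 0h 6 assembly genes were higher in Null than in WT and 0 lower by edgeR, beside 3.32% and 3.35% of all tested genes. At an unadjusted edgeR p below 0.05, 26 of 90 were higher and 2 lower, beside 9.5% and 10.7% of all tested genes. The median of the assembly genes was 0.23. DESeq2 called 3 higher and 0 lower. Ftsj3 (0.73), Polr1a (0.67), the largest subunit of RNA polymerase I, and Ddx18 (0.55) had the largest differences. At 24h Nip7 (0.34) was the single call, and DESeq2 made none. No assembly gene was called for a difference between the responses by edgeR or DESeq2. At an unadjusted edgeR p below 0.05, 1 was higher and 9 lower, beside 5.43% and 4.8% of all tested genes. In tailbuds no assembly gene was called by edgeR or DESeq2. At an unadjusted edgeR p below 0.05, 0 were higher and 9 lower in Triple against WT, beside 6.58% and 5.45% of all tested genes.

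Of 19 tested other TOP messenger RNAs, 10 rose and 1 fell in Null at 24h, and 9 rose and 1 fell in WT, with medians of 0.30 and 0.25, beside the same shares of all tested genes. DESeq2 called 6 higher in Null and 8 in WT, and 1 lower in each. Pabpc1, the poly(A)-binding protein, rose by 0.50 in Null and 0.57 in WT. The initiation factor subunits Eif3e and Eif3h rose by 0.44 and 0.39 in Null, and the elongation factor Eef1b2 rose by 0.46 in WT. The gene that fell in both was Vim, the intermediate filament protein vimentin, by 0.38 in Null and 0.80 in WT, and it was lower in Null than in WT at 0h by 0.39. In tailbuds it was higher in Triple than in WT (0.88) and than in Cdx1-4 (0.73), and DESeq2 made none of these 3 calls between genotypes. These were the only calls of the list between genotypes in edgeR. Of ribosomal protein genes outside the symbol rule, Fau and Rpl36al were not called at 24h against 0h. Rpl36al was higher in Null than in WT at 24h (0.35).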

How the data were processed

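Per the labels' protocols, 10 ng of total RNA per sample went through CEL-seq and 75 bp paired-end sequencing, and the submitters' processing notes name mm10. The authors deposited counts per gene, not normalised, for 8 EpiSC libraries (15807 genes) and 9 tailbud libraries (14602 genes). The aligner and counter are not given in the sources used here. The 8 spike-in entries of each table were left out. Tailbud columns name a genotype, a colour and a number but not a single sample, so each was used as a replicate of its group. Replicates differed beyond sampling noise.

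Each table was fitted alone with edgeR 4.0.16 (R 4.3.3): TMM scaling, filterByExpr, 1 mean per group, glmQLFit with robust estimation and glmQLFTest. That left 9703 and 6003 genes, 4 and 6 residual degrees of freedom. A gene was called at a Benjamini-Hochberg adjusted p below 0.05 over all tested genes. Standard errors come from the F statistic, and CPM from TMM-scaled totals. Of the members, 80 were tested in EpiSCs (Rpl10l, Rpl3l and Rps4y2 were too low) and 78 in tailbuds (Rpl10l, Rpl39l, Rpl26, Rpl30 and Rps27 were too low). A member that passed the filter through a group where it is high was more open to a call. Floors cover counting error only. The fit was tested on simulated data with known differences, each larger than the members' median difference in any comparison. That test therefore does not cover differences as small as theirs. Alternatives were DESeq2 1.42.0, RLE, upper-quartile and library-total scaling, TMM factors from other genes, no filter, the compared groups alone, a replicate block, each library left out, and, in tailbuds, blue libraries alone. For shares, another denominator and a wider numerator were tried.

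Members, lists and comparisons were chosen with earlier results of these data known. Named members are, per comparison, up to 5 called with the largest rise and 5 with the largest fall, the highest and lowest by share, paralogs, X-linked members, those called in both lines, and members with a textbook role that were chosen after values were seen. The count of other abundant genes was also added after values were seen. Of the 84 symbols, 83 matched RefSeq (GRCm38.p6), from which positions and promoters come. Binding and accessibility lists were not used. Results of some genes are not reported here.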

Additional observations from a re-analysis of the deposited data

Results flagged for a closer look

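Rps21 stood out by a test of the difference between the 24h responses of the lines. The response of Null EpiSCs minus that of WT EpiSCs was 0.54 on the log2 scale (edgeR adjusted p = 0.0351), with 2 of 2 Null libraries higher at 24h than both at 0h and 2 of 2 WT libraries lower. The call was lost when any of the 8 EpiSC libraries was left out, with adjusted p from 0.053 to 0.243. Groups of 2 or 3 libraries are too small for a test of single outlying samples, so none was made.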

How the results depend on the processing

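The count of called members moved by over 1.5 times in these cases. For WT EpiSCs at 24h against 0h it was 50, was 29 with library totals, and ran from 17 to 56 over left-out libraries. For Null EpiSCs it was 44 and ran from 25 to 49. For Null against WT at 0h it was 9, was 5 under DESeq2, and ran from 2 to 10. At 24h it was 14 and ran from 3 to 14. For the interaction it was 1, was 3 without the filter, and ran from 0 to 2. For Triple against WT it ran from 0 to 1, and for Triple against Cdx1-4 it was 1 (Rps23) without the filter. The difference in share moved, without the 10 most abundant other genes in the total, to 3.31 points for Null at 24h and 0.69 points for Null against WT at 24h. For the interaction it ran from -0.23 to 0.21 over left-out libraries. Deviations of same-numbered libraries correlated at 0.0072 to 0.0884 in EpiSCs, all of them positive, and at -0.0934 to 0.0537 in tailbuds. Whether libraries of the same number were paired is not known. With a replicate block the counts were 61, 54, 18, 22 and 4 in EpiSCs, for the WT response, the Null response, the line difference at 0h and then 24h, and the interaction, and 1, 0 and 0 in tailbuds. The members' median log2 difference ran from 0.02 to 0.12 for Null against WT at 0h and from 0.06 to 0.13 at 24h. For the members named as the largest called rises and falls, 348 recomputed values held their call, 53 lost it with the same sign, and none turned. These members were chosen by those calls, and members named for other reasons are not in this count. The causes were not tested. Depth limits members under about 100 counts in a library.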
